A study of Mus musculus with 12 samples.

Results

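The genes described here are 10 genes of the neuronal cytoskeleton: the neurofilament and α-internexin genes Nefl, Nefm, Nefh and Ina, the β-tubulin gene Tubb3, the microtubule-associated protein genes Map2, Mapt and Dcx, the stathmin gene Stmn2 and the growth cone gene Gap43. They were chosen by symbol, all 10 matched an Ensembl identifier, and they are 10 of 33560 genes with counts. All 10 also passed the filter on low counts, which kept 15443 genes for testing, and the lowest count of any of them was 983, for Dcx.

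Expression was measured by sequencing of poly(A) RNA in 12 libraries of neurons that had been differentiated in vitro from mouse embryonic stem cells and kept for 21 days. The neurons were wild type (WT) or carried a deletion of a microexon of Daam1 (KO), which encodes an actin-nucleating formin. They received 10 µM Y-27632, an inhibitor of the kinase ROCK that regulates actomyosin contraction, or water as vehicle, in either case for 2 h. Each of the 4 groups held 3 libraries, from lines 1, 2 and 3 of its genotype, and every line gave 1 vehicle and 1 inhibitor library, so that 6 lines stand behind the 12 libraries. The labels do not say whether a line is a single clone. They describe glutamatergic neurons cultured in vitro, while the text on the series speaks of adult hippocampus; the sample labels were followed.

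Neurofilaments are the intermediate filaments of neurons, co-polymers of a light (Nefl), a medium (Nefm) and a heavy (Nefh) subunit with α-internexin (Ina), and they set the calibre of large axons. Microtubules, polymers of α- and β-tubulin, run along the same processes: Map2 binds them in dendrites, Mapt (tau) in axons, and Dcx (doublecortin) in young, migrating neurons. Stmn2 binds tubulin dimers and is found in growing axons, and Gap43 is a membrane protein of growth cones. Their transcripts are widely used to mark neurons.

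In outline, none of the 10 genes passed the test in any comparison (0% of all genes did). In vehicle, the KO libraries lay above all WT libraries for Nefm, Nefh, Nefl and Tubb3, by 1.39-, 1.35-, 1.16- and 1.16-fold; 7.62% of all genes tested lay wholly above in the same way. After the inhibitor, 1 KO library held far less of all 10 transcripts than any other library, and most of the directions seen in that group rested on it.

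Promoter sequences are shown for 4 members (Map2, Tubb3, Ina and Dcx). For the other members RefSeq's promoter set gave no usable stretch of bases outside annotated exons. The sequences are given as description only, and their part in the levels of the 10 genes was not tested. Each runs 5′ to 3′ over bases upstream of the gene's start that lie in no annotated exon (build GRCm38.p6), with capitals marking motif matches on either strand.

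Map2, chr1:66175079-66175272, + strand: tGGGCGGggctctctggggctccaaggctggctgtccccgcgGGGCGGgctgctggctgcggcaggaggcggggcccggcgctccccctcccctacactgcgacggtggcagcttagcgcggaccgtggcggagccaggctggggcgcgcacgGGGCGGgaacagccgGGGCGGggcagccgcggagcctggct

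Tubb3, chr8:123411303-123411423, + strand: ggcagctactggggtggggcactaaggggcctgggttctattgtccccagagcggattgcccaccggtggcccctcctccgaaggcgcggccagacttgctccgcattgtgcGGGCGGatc

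Ina, chr19:47014431-47014680, + strand: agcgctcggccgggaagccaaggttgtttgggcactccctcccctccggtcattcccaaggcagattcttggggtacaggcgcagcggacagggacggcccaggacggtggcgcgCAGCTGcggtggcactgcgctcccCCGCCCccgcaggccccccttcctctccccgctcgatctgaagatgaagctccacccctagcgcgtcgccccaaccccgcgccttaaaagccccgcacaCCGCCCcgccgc

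Dcx, chrX:143933312-143933469, - strand: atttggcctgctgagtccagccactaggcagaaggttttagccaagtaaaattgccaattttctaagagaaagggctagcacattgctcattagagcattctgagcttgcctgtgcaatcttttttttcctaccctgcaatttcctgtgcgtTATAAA

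The motifs searched, none of whose matches overlapped another, were a GC box, an E-box, a TATA box, a cAMP response element and the CArG box that SRF binds. The GC box, spelled GGGCGG, was found 4 times in the 194 bases of Map2, and 23.6% of 32851 mouse promoters held at least 1 in the same window. Tubb3 had 1 GC box in 121 bases (12.9% of promoters) and Ina 2 in 250 bases (32.7%). The E-box, spelled CAGCTG, was found only in Ina of these 4 genes, with 1 match (13% of promoters). Dcx had no GC box in 158 bases (17.8% of promoters had one) and 1 match to the TATA box, spelled TATAAA (7.57% of promoters). Its region was also the poorest in G and C, with 42.4%, against 67.8% in Tubb3, 70.8% in Ina and 79.4% in Map2. The letters of the cAMP response element (TGACGTCA) and of the CArG box were not in any of the 4 windows.

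Counts per library ranged from 23253566 to 35012561. Values per library are given as CPM, counts divided by the library total and brought to a common scale with TMM factors, in the order of lines 1, 2 and 3. The KO inhibitor library of line 3 stood apart: its median correlation with the other libraries across genes was 0.854 (log2 CPM), against 0.953 to 0.986 for the other 11, and mitochondrial genes took 9.96% of its counts, against 13.7% to 18.5%. Comparisons of the 10 genes and counts over gene lists that use it are also given after leaving it out. By their labels 2 WT libraries, line 2 in vehicle and line 3 in inhibitor, share neither line nor treatment, yet each correlated best with the other (r of 0.985). Values by line, line sums and paired fits rest on the labels as given. Daam1 held 133 to 188 CPM in the other 11 libraries and 67.9 CPM in this one; a count over the whole gene does not check the deletion of a microexon. Neuronal markers were high in every other library (a summed 2890 to 4230 CPM of 6 genes, none of them at 0). Of 6 glutamatergic markers, Slc17a6 was high (median 305 CPM) while Slc17a7, Neurod1, Neurod2, Neurod6 and Tbr1 had medians of 1.16, 0.798, 0.258, 0.822 and 1.21 CPM. Of 5 GABAergic markers, the transmitter synthesis and transport genes Gad1, Gad2 and Slc32a1 had medians of 191, 181 and 155 CPM, and the forebrain interneuron factors Dlx1 and Dlx2 of 0.638 and 0.261 CPM. In bulk RNA, fewer cells of a type and less RNA per cell cannot be told apart.

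Levels between genes were compared on the deposited cRPKM scale, which divides by length. In the WT vehicle libraries the order by mean cRPKM was Nefl (520), Stmn2 (451), Gap43 (384), Tubb3 (368), Mapt (202), Nefm (135), Ina (123), Map2 (93.0), Nefh (36.3) and Dcx (9.27). The libraries of neighbouring genes overlapped from Nefl to Tubb3 and from Nefm to Map2, so the order within those runs was not resolved. The light subunit thus stood far above the medium and heavy subunits, and Dcx, which marks young neurons, was lowest. In KO vehicle the order differed only in Tubb3 (418) and Gap43 (380), which overlapped, and the order in the inhibitor groups was that of KO vehicle.

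The neurofilament subunits were described first, with the limit that Nefl (ENSMUSG00000022055, chromosome 14, 68083863 to 68089095, + strand, GRCm38) lies whole within the span of an annotated Nefm transcript (ENSMUSG00000022054, 68082590 to 68124846, − strand). Of the 50-base windows of its exons, 31.8% also lie in exonic sequence of Nefm, and 18.6% of the windows of Nefm are shared with other genes, nearly all with Nefl. Whether counting used the strand is not given in the sources used here, so reads of these 2 genes cannot be fully told apart and both values are uncertain for that reason. Nefh (ENSMUSG00000020396, chromosome 11, 4938754 to 4948064) shares no window with another gene.

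Nefm, the medium subunit, held 452, 422 and 453 CPM in the WT vehicle libraries and 588, 637 and 618 CPM in the KO vehicle libraries. In inhibitor it held 455, 514 and 468 CPM in WT and 597, 563 and 190 CPM in KO. All KO vehicle libraries were higher than all WT libraries of either treatment, and so were the KO inhibitor libraries of lines 1 and 2. Nefh, the heavy subunit with the long phosphorylated tail, held 129, 126 and 130 CPM in WT vehicle and 174, 177 and 170 CPM in KO vehicle. In inhibitor it held 132, 151 and 168 CPM in WT and 157, 159 and 53.3 CPM in KO. The vehicle groups were tight and did not overlap, while the inhibitor groups did. Nefl, the light subunit on which the others assemble, held 1754, 1653 and 1768 CPM in WT vehicle and 2000, 1969 and 2022 CPM in KO vehicle. In inhibitor it held 1805, 1957 and 1726 CPM in WT and 1930, 1874 and 482 CPM in KO. Again the vehicle groups did not overlap. Ina (ENSMUSG00000034336, chromosome 19, 47014698 to 47025327), α-internexin, held 380, 377 and 415 CPM in WT vehicle and 387, 391 and 431 CPM in KO vehicle, and these groups overlapped. It held 386, 398 and 318 CPM in WT and 404, 406 and 98.9 CPM in KO with inhibitor. Ina shares 12.8% of its windows with Nt5c2 on the opposite strand, which held 42.3 to 48.8 CPM.

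Tubb3 (ENSMUSG00000062380, chromosome 8, 123411424 to 123422015), the β-tubulin isotype of neurons, held 604, 596 and 606 CPM in WT vehicle and 645, 708 and 745 CPM in KO vehicle, which did not overlap. In inhibitor it held 636, 705 and 518 CPM in WT and 699, 702 and 175 CPM in KO, which overlapped. Tubb3 made up 22.9% to 28.4% of the counts of the 8 β-tubulin genes in 11 libraries and 10.99% in the KO inhibitor library of line 3.

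The microtubule-associated protein genes varied more within groups. Map2 (ENSMUSG00000015222, chromosome 1, 66175273 to 66442583) held 589, 411 and 718 CPM in WT vehicle and 538, 572 and 739 CPM in KO vehicle. In inhibitor it held 663, 604 and 465 CPM in WT and 607, 701 and 80.6 CPM in KO. The spread within each group was wider than the distance between the vehicle groups. Mapt (ENSMUSG00000018411, chromosome 11, 104231390 to 104332090) held 1092, 959 and 1084 CPM in WT vehicle and 1000, 999 and 1059 CPM in KO vehicle. With inhibitor it held 1079, 1072 and 814 CPM in WT and 1071, 1113 and 282 CPM in KO. Its vehicle groups overlapped as well. Dcx (ENSMUSG00000031285, chromosome X, 143855842 to 143933311) held 94.9, 55.5 and 96.8 CPM in WT vehicle and 90.5, 66.9 and 63.5 CPM in KO vehicle. With inhibitor it held 106, 89.3 and 68.5 CPM in WT and 81.3, 63.5 and 31.3 CPM in KO. Lines 2 and 3 of KO were below line 1 under either treatment.

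Of the growth-associated genes, Stmn2 (ENSMUSG00000027500, chromosome 3, 8509360 to 8561606) held 948, 762 and 1010 CPM in WT vehicle and 999, 1018 and 1005 CPM in KO vehicle. In inhibitor it held 946, 980 and 733 CPM in WT and 963, 997 and 268 CPM in KO. Gap43 (ENSMUSG00000047261, chromosome 16, 42248442 to 42340651) held 546, 454 and 570 CPM in WT vehicle and 542, 537 and 513 CPM in KO vehicle, and 550, 577 and 409 CPM in WT inhibitor and 540, 500 and 184 CPM in KO inhibitor. For both genes the WT library of line 2 in vehicle and that of line 3 in inhibitor were the lowest of their groups, and the vehicle groups overlapped.

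**Figure D1:**
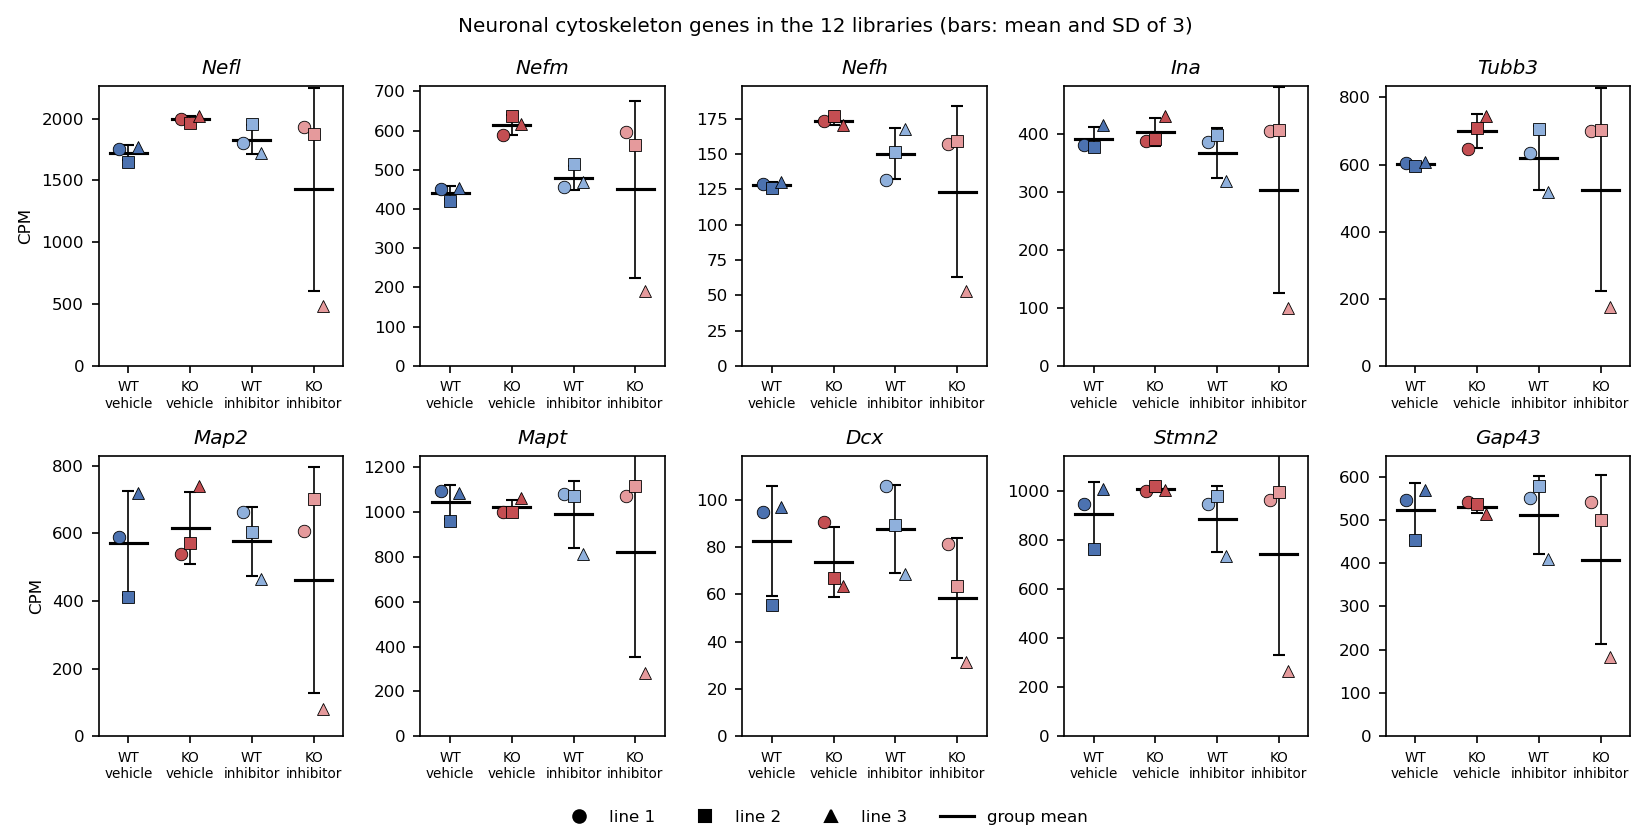
CPM of the 10 genes (vertical axis, linear, from 0) in the 4 groups (horizontal axis); each symbol is 1 library, its shape gives the line, and bars are the mean and SD of 3 libraries. The KO vehicle symbols of Nefl, Nefm, Nefh and Tubb3 lie above all WT vehicle symbols, and the triangle of KO inhibitor (line 3) is the lowest in every panel.

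The effect of the deletion was read from KO against WT in vehicle. The 3 KO libraries lay above the 3 WT libraries for 4 of the 10 genes (Nefm, Nefh, Nefl and Tubb3), and for none below; of all 15443 genes tested, 7.62% lay wholly above in KO and 4.9% wholly below. Nefm differed by 0.47 ± 0.34 on the log2 scale (± SE; unadjusted p of 0.190 and adjusted p of 0.999, edgeR's quasi-likelihood test with Benjamini-Hochberg adjustment, as for every p below unless named). Nefh differed by 0.44 ± 0.33, Tubb3 by 0.22 ± 0.41 and Nefl by 0.21 ± 0.40 (adjusted p of 0.999 for each). The values of the other genes were 0.15 (Stmn2), 0.11 (Map2), 0.045 (Ina), 0.020 (Gap43), -0.036 (Mapt) and -0.16 (Dcx). The median over the 10 genes was 0.13, against -0.010 over all genes tested, with 8 above 0 (48.3% of all genes were). No gene of 15443 was called (0%), 307 (1.99%) had an unadjusted p below 0.05 with no member among them, and DESeq2 called 11 genes (0.0718%), again with no member.

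The spread used in this test is shared by all 12 libraries, so the KO inhibitor library of line 3 enters it although it is in neither vehicle group. Without that library the difference of Nefm was 0.47 ± 0.073, with an unadjusted p of 8.39e-05 and an adjusted p of 0.205. That of Nefh was 0.44 ± 0.082 (unadjusted p of 0.000388, adjusted p of 0.378) and that of Nefl 0.21 ± 0.072 (unadjusted p of 0.0157, adjusted p of 0.545). Tubb3 was at 0.22 ± 0.11 (unadjusted p of 0.0740, adjusted p of 0.574). Of all 15591 genes in that fit, 8.57% had an unadjusted p below 0.05 and 0% were called. In a fit of the 6 vehicle libraries alone the unadjusted p was 0.00122 for Nefm, 0.000596 for Nefh, 0.0443 for Nefl and 0.0640 for Tubb3, and the adjusted p was 0.725 for each; 5.14% of 14668 genes had an unadjusted p below 0.05 there, and 0% were called. The sizes thus barely moved, the standard errors shrank, and no member passed in either fit. Over all alternatives the adjusted p of Nefm in vehicle ran from 0.205 to 1.

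Marker levels of several cell types also differed between the vehicle libraries. The summed GABAergic markers were at 453 to 489 CPM in WT and 569 to 649 CPM in KO, which did not overlap, and the neuronal markers at 2890 to 3907 CPM in WT and 3809 to 4230 CPM in KO, which did. Mesenchymal markers were at 100 to 1157 CPM in WT and 24.5 to 101 CPM in KO, and astrocyte markers at 50.9 to 228 CPM and 65.2 to 128 CPM. With inhibitor, mesenchymal markers were at 269 to 756 CPM in WT and 56.8 to 85.4 CPM in KO. None of these markers was at 0 in all libraries. Their part in the differences of the neurofilament genes was not tested.

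With inhibitor, all 10 genes had a lower fitted mean in KO than in WT (50.1% of all genes did), from -0.58 for Dcx to -0.090 for Nefm, with a median of -0.28 against -0.00050 over all genes. No member had groups that did not overlap (7.03% of all genes lay wholly below in KO), and none was called (0%; smallest adjusted p among members of 0.856). The direction rested on the KO library of line 3. Without it 9 of the 10 genes were higher in KO, with a median of 0.14, against 42.6% of all genes and a median of -0.049. Nefm differed by 0.28 ± 0.081 (unadjusted p of 0.00684, adjusted p of 0.491) in that fit. Dcx stayed negative, at -0.28 ± 0.28. In the fits of all 12 libraries, 0% of all genes were called, 540 (3.5%) had an unadjusted p below 0.05, and DESeq2 called 18 (0.122%). No member was among either. The share of all genes at an unadjusted p below 0.05 was not counted without line 3 of KO inhibitor.

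Treated and untreated neurons of the same genotype were set side by side next. In WT, 6 of the 10 genes were higher (53.4% of all genes were) and 4 lower, between -0.088 (Ina) and 0.23 (Nefh), and none was called (0%; 47 genes, 0.304%, at an unadjusted p below 0.05 and 0 under DESeq2). The inhibitor libraries lay above all vehicle libraries for Nefh and Nefm, as they did for 3.04% of all genes; their differences were 0.23 ± 0.33 and 0.12 ± 0.34 (adjusted p of 1.00 for each). Map2 stood at 0.011 ± 0.59, with its sign reversed under other scalings.

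In KO all 10 genes were lower with inhibitor (51.8% of all genes were), from -0.49 (Nefh) to -0.31 (Mapt), with a median of -0.41 against -0.018 over all genes. The groups did not overlap for Nefl, Nefh and Stmn2, against 5.65% of all genes, and no gene was called (0%; 1088, or 7.05%, at an unadjusted p below 0.05 and 0 under DESeq2). With line 3 of that group left out, the 10 genes lay between -0.13 (Nefh) and 0.10 (Mapt), 4 higher and 6 lower, with a median of -0.025. Of all genes, 51% were higher in that fit, with a median of 0.0034. The genotype and treatment comparisons share libraries, and so their directions are not independent.

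In the interaction, the response in KO minus that in WT, all 10 values were negative (50.8% of all genes were), from -0.72 ± 0.46 for Nefh to -0.23 ± 0.57 for Mapt, and none was called (0%; 185 genes, 1.2%, at an unadjusted p below 0.05 and 0 under DESeq2). With line 3 of KO inhibitor left out, 4 values were positive and 6 negative, with a median of -0.021; Nefh was at -0.36 ± 0.12, with an unadjusted p of 0.0153 and an adjusted p of 1.00. Of all genes in that fit, 49.7% were positive, and the share at an unadjusted p below 0.05 was not counted. By line, the Nefh response was above 0 in all 3 WT lines and below 0 in all 3 KO lines, a pattern that 1.31% of all genes tested showed.

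Over both treatments, with the 2 libraries of each line summed (3 against 3 lines), 3 of the 10 genes were higher (60.7% of all genes were) and 7 lower (39.3%) in KO, with a median of -0.071 against 0.045 over the 16090 genes tested. None was called (0%; 426 genes, 2.65%, at an unadjusted p below 0.05 and 87, or 0.565%, under DESeq2, with no member among them). Nefm differed by 0.21 ± 0.19 and Dcx by -0.36 ± 0.25 (adjusted p of 0.998 for each). Without KO line 3, 9 genes were higher and 1 lower, with a median of 0.12, and Nefm was at 0.38, with the smallest adjusted p of any member in any fit, 0.179. Of all genes, 48.5% were higher without KO line 3, with a median of -0.0065.

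**Figure D2:**
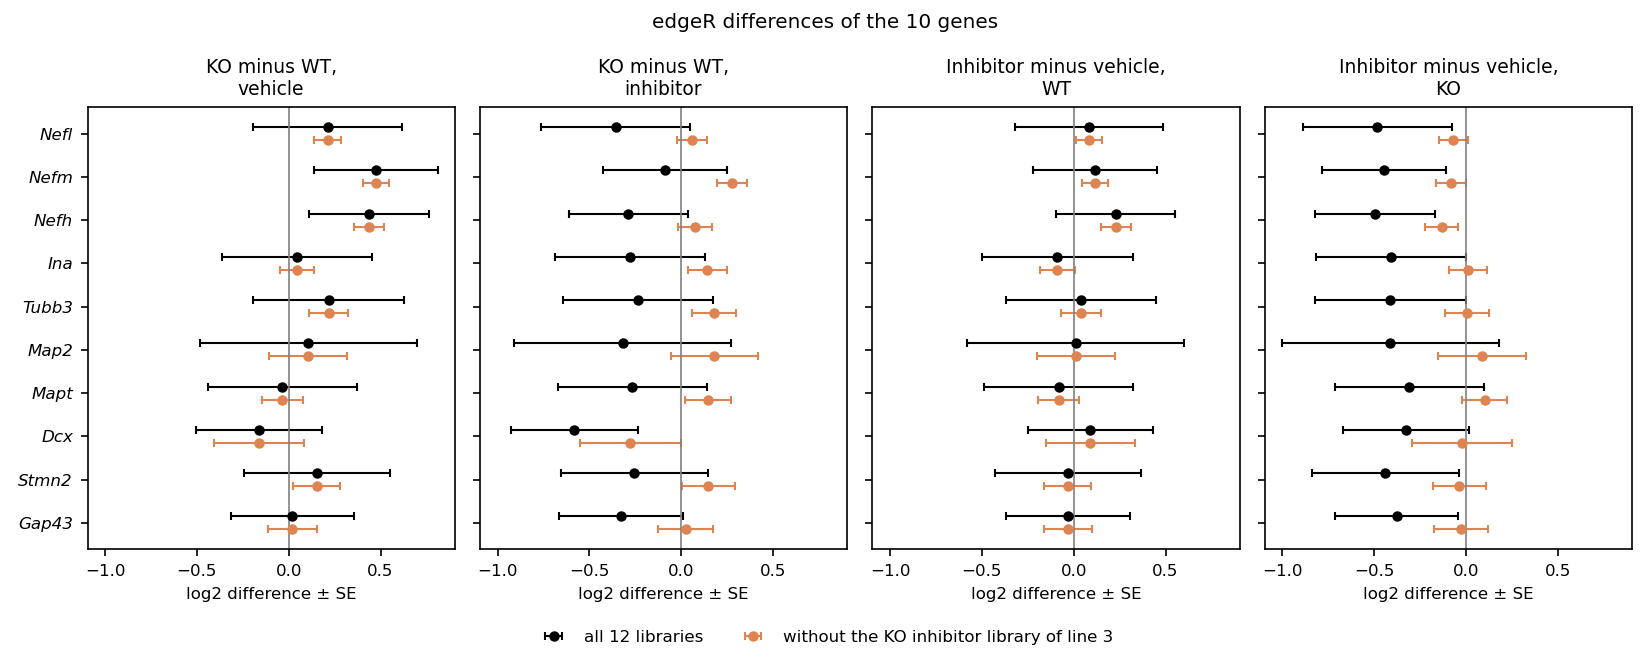
Log2 differences of the 10 genes with their standard errors (horizontal axis) in the genotype comparison under each treatment and the treatment comparison in each genotype, from all 12 libraries (black) and from 11, leaving out line 3 of KO inhibitor (orange). In the 2 panels that use the KO inhibitor libraries the black points lie left of 0 for all 10 genes and each orange point lies to the right of its black one; in vehicle the points coincide and the error bars shrink.

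The KO inhibitor library of line 3 held the lowest CPM of the 12 libraries for all 10 genes, as it did for 39% of all genes tested. Map2 was at 13.3% of the median of the other 11 libraries, 7.49-fold below it, and this was the furthest of the 10. Ina (3.95-fold), Nefl (3.89-fold), Mapt (3.797-fold), Tubb3 (3.68-fold) and Stmn2 (3.66-fold) were next, and Nefh (2.95-fold), Gap43 (2.93-fold), Nefm (2.71-fold) and Dcx (2.60-fold) were least far below. Across all genes the median was 97.5% of the other libraries, and 22.7% of genes were under a 0.5 share of it. The neuronal marker sum was low alongside, at 1020 CPM against 2890 to 4230 CPM, with all 6 markers at their lowest. The glutamatergic sum was 56.5 CPM against 247 to 428 CPM and the GABAergic sum 211 CPM against 453 to 649 CPM. Of these markers, 3 of 6 glutamatergic and 3 of 5 GABAergic ones were at their lowest there. Tbr1 (2.07 CPM), Dlx1 (1.11 CPM) and Dlx2 (0.509 CPM), all of low level, were at their highest there. Astrocyte markers (960 against 50.9 to 228 CPM), progenitor markers (66.1 against 6.24 to 25.8 CPM), proliferation markers (470 against 4.93 to 275 CPM) and oligodendrocyte lineage markers (529 against 20.5 to 164 CPM) were at their highest there, while mesenchymal markers (85.4 CPM) lay within the range of the others. Of the 5 oligodendrocyte lineage markers, 3 were at their highest there and Mbp was at its lowest, and Pdgfra alone held 509 CPM. Of all genes tested, 38.4% were highest in this library. The part of these markers in the low values of the 10 genes was not tested.

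Among the other filament and tubulin genes, several of non-neuronal cells were highest in the same library, as were 38.4% of all genes tested. The muscle filament gene Des (0.668 CPM there against 0.058 to 3.54 CPM elsewhere) was not. The glial filament gene Gfap was at 598 CPM there against 40.5 to 185 CPM elsewhere, and Vim, the filament of glia and mesenchyme, at 578 against 29.3 to 266 CPM. The epithelial keratin Krt8 was at 542 against 2.34 to 208 CPM and its partner Krt18 at 368 against 2.52 to 141 CPM. Of the β-tubulins, Tubb6 was at 52.8 against 0.995 to 34.5 CPM, while Tubb5 (817 CPM) and Tubb4b (320 CPM), which many cell types express, lay within the range of the other libraries. Tubb4a was at 46.2 against 109 to 209 CPM and Tubb2b at 107 against 198 to 340 CPM.

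Line 2 of WT in vehicle and line 3 of WT in inhibitor were also low for several of the 10 genes, measured against the median of 10 libraries, the 12 less the library itself and line 3 of KO inhibitor. In the former, Dcx was at 65.1%, Map2 at 67.9%, Stmn2 at 77.1%, Nefm at 78.2% and Nefh at 79.6%, while Gap43 (84.0%), Nefl (86.9%), Tubb3 (88.6%), Mapt (89.5%) and Ina (95.5%) were nearer to it. In the latter Stmn2 was at 74.1%, Gap43 at 75.6%, Mapt at 76.0%, Map2 at 76.8% and Tubb3 at 77.0%, while Dcx (80.4%), Ina (80.7%), Nefm (86.8%), Nefl (90.7%) and Nefh (109%) were nearer or above. These libraries also held the highest mesenchymal marker sums, 1157 and 756 CPM, and proliferation sums of 275 and 195 CPM. In line 3 of KO inhibitor the mesenchymal sum, 85.4 CPM, was not raised in this way. The medians used here span both genotypes, and Nefm and Nefh were higher in KO vehicle than in WT vehicle. Within WT vehicle, line 2 was nearer to lines 1 and 3 for these genes. It held 422 against 452 and 453 CPM of Nefm, and 126 against 129 and 130 CPM of Nefh.

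**Figure D3:**
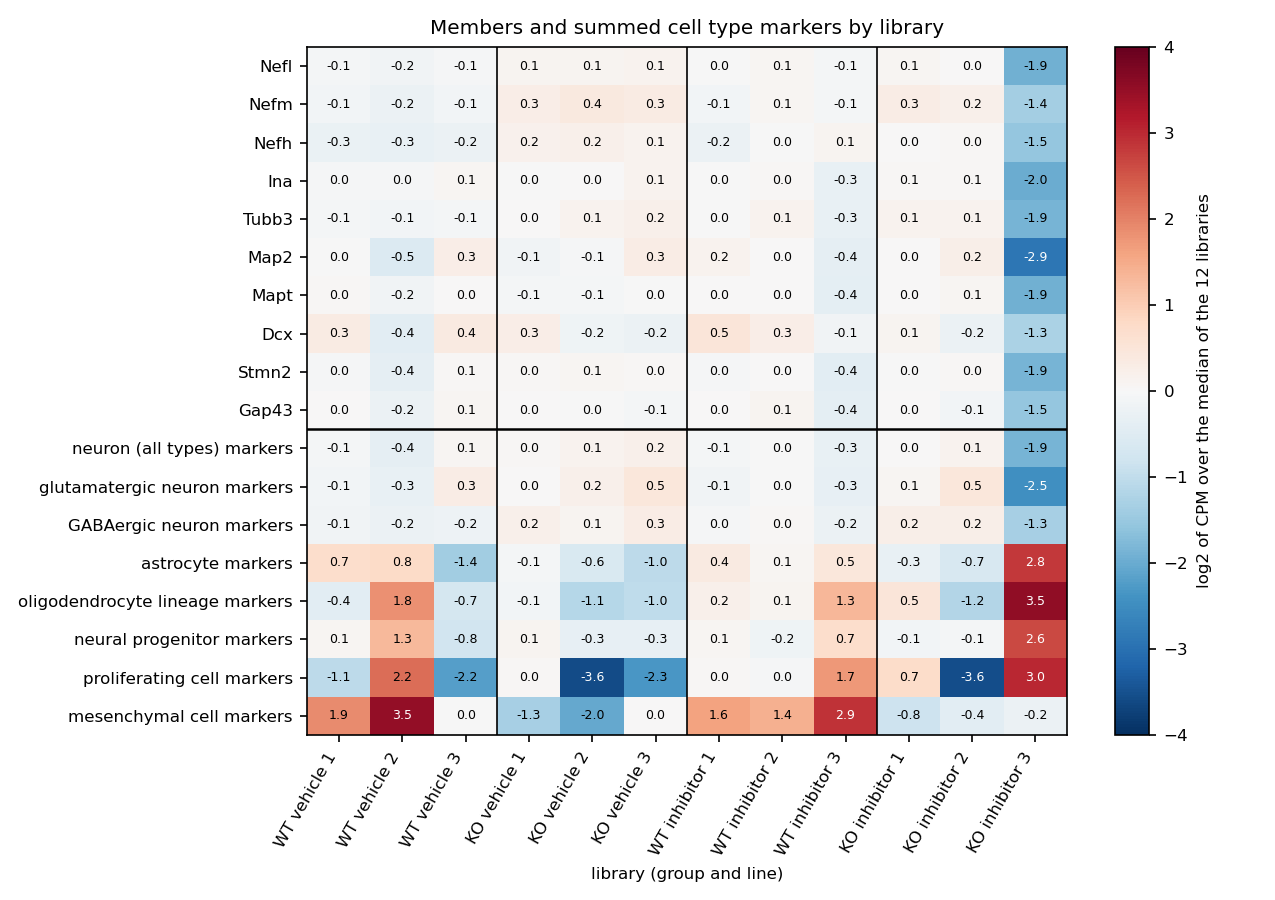
Log2 of CPM over the median of the 12 libraries for the 10 genes (upper rows) and for summed marker lists (lower rows), 1 column per library in order of group and line; blue is below and red above the median. The last column, KO inhibitor of line 3, is blue in all 10 genes and in the 3 neuronal marker rows and red in the astrocyte, oligodendrocyte lineage, progenitor and proliferation rows.

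Ratios within a library do not depend on its scaling, and the counts of the 9 other genes were set against those of Nefl (ratios chosen after the values were seen). Nefm had 25.7, 25.5 and 25.6 counts per 100 counts of Nefl in WT vehicle and 29.4, 32.4 and 30.6 in KO vehicle. In inhibitor it had 25.2, 26.3 and 27.1 in WT and 30.9, 30.1 and 39.4 in KO. All 6 KO libraries thus lay above all 6 WT libraries, the KO inhibitor library of line 3 included; 0.227% of all genes did so in their ratio to Nefl, and as many lay wholly below. Between the means of 3 KO and 3 WT lines the log2 ratio differed by 0.30 (1.23-fold), with a two-sided exact permutation p of 0.1, the smallest that 3 against 3 can give, and a Benjamini-Hochberg p of 0.514 over the 9 ratios. The shared exonic sequence of the 2 genes bears on this ratio, and its part was not tested. Nefh shares none, but Nefl, the denominator of its ratio, shares sequence with Nefm. The ratio of Nefh to Nefl differed by 0.19 (1.14-fold, exact permutation p of 0.2). For this ratio 5 of the 6 KO libraries lay within the WT range of 7.30 to 9.74 counts per 100. The upper end of that range was the WT inhibitor library of line 3. The next WT library was at 7.74, and the lowest KO library at 8.15. The ratio of Nefm to Ina differed by 0.35 and to Tubb3 by 0.24 (exact permutation p of 0.1 each), with 2 and 4 KO libraries within the WT range. Here too the WT inhibitor library of line 3 set the upper end, at 147 and 90.3 counts per 100. The next WT libraries were at 129 and 74.7, and the lowest KO libraries at 139 and 80.3. The ratio of Nefh to Ina differed by 0.24 and to Tubb3 by 0.13 (exact permutation p of 0.1 and 0.4). In these ratios 5 and 6 KO libraries lay within the WT range.

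**Figure D4:**
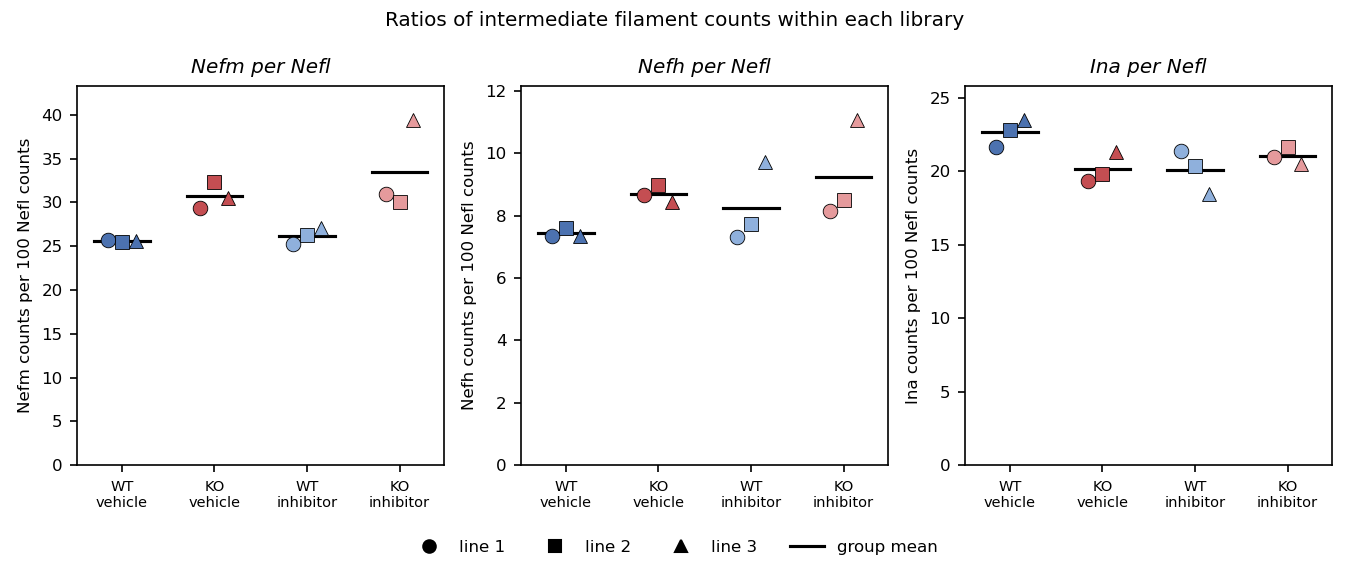
Counts of Nefm, Nefh and Ina per 100 counts of Nefl (vertical axes, linear, from 0) in each of the 12 libraries by group; symbols give the line and bars the group mean. For Nefm all KO symbols, 29.4 to 39.4, lie above all WT symbols, 25.2 to 27.1. For Nefh and Ina the genotypes overlap, for Nefh only through the WT inhibitor library of line 3.

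The wider cytoskeleton was followed in 10 lists of 116 genes that include the 10 genes; 114 were tested (Tubb1 had too few counts and Dpysl4 no count in the tables). None was called in any comparison (0% of all genes were). In vehicle 67 were higher and 47 lower in KO, with a median of 0.050 against -0.010 over all genes (48.3% of all genes were higher). In KO 24 were higher and 90 lower with inhibitor (48.2% of all genes were higher), with a median of -0.29 against -0.018. Without line 3 of KO inhibitor that turned to 62 higher and 52 lower (51% of all genes were higher), with a median of 0.017. KO against WT in inhibitor had 25 higher and 89 lower (49.9% of all genes were higher). Without that library it had 77 higher and 37 lower (42.6%). The interaction had 26 above 0 and 88 below (49.2% of all genes were above), and 70 and 44 without it (49.7%). Over line sums 49 were higher and 65 lower in KO (60.7% of all genes were higher). Without KO line 3 these counts were 81 and 33 (48.5%).

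Axonal motor genes, which carry neurofilaments and vesicles, were higher in KO vehicle for 13 of 15 (48.3% of all genes were), with a median of 0.17. In inhibitor 1 was higher and 14 lower in KO, with a median of -0.18, and 12 were higher and 3 lower, with a median of 0.13, without line 3 of KO inhibitor. Over line sums 8 were higher and 7 lower, and without KO line 3 all 15 were higher. With inhibitor in KO 1 was higher and 14 lower, against 6 and 9 without that library. The counts that follow are for KO against WT in vehicle. The kinesins Kif5a (2274 ± 371 CPM in WT and 2945 ± 471 CPM in KO, SD, n = 3) and Kif1a (1282 ± 144 and 1483 ± 151 CPM) were the most abundant, and neither passed. Of 23 genes for microtubule-associated proteins, 14 were higher, with Map1b at 1732 ± 203 and 1706 ± 386 CPM and Map1a at 1198 ± 25.6 and 1280 ± 304 CPM. Tubulins were split, 7 higher and 5 lower of 12, with Tubb5 at 817 ± 143 and 829 ± 37.9 CPM and Tuba1a at 447 ± 12.4 and 441 ± 26.4 CPM. Of 13 intermediate filament genes, 4 were higher, the 4 members, and 9 lower, with Gfap at 134 ± 81.3 and 64.5 ± 25.2 CPM and Vim at 106 ± 101 and 43.9 ± 21.5 CPM.

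The other 6 lists hold regulators of tubulin, of the axonal membrane and of the kinases that act on these proteins. Stathmins and collapsin response mediators, which bind tubulin, had 3 higher and 5 lower of 8, with Stmn3 at 565 ± 41.1 and 656 ± 31.6 CPM and Dpysl3 at 755 ± 83.0 and 706 ± 44.9 CPM. Growth cone and axonal membrane genes had 7 higher of 10, with Rtn1 at 859 ± 63.2 and 986 ± 47.4 CPM and Basp1 at 870 ± 56.1 and 872 ± 123 CPM. Spectrin, ankyrin and adducin genes of the membrane skeleton had 8 higher of 10, with Sptan1 at 878 ± 47.6 and 945 ± 141 CPM and Sptbn1 at 992 ± 70.2 and 963 ± 170 CPM. Kinases of tau and neurofilaments had 6 higher of 9, with Gsk3b at 403 ± 56.8 and 434 ± 44.2 CPM and the Cdk5 activator Cdk5r2 at 290 ± 4.87 and 300 ± 39.1 CPM. The severing enzymes had 3 higher of 7, with Spast at 133 ± 11.9 and 140 ± 4.72 CPM and Katnal1 at 76.5 ± 12.4 and 87.5 ± 5.03 CPM. Genes for γ-tubulin and tubulin folding had 2 higher of 7, with Tbcd at 86.9 ± 5.10 and 80.7 ± 2.09 CPM and Tbcb at 80.5 ± 6.09 and 88.1 ± 3.47 CPM. No gene of these lists passed the test.

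The 10 genes varied together over the libraries, mostly through 1 of them. Over the 12 libraries Pearson's r of log2 CPM between pairs of the 10 genes had a median of 0.956, and with line 3 of KO inhibitor left out a median of 0.583, from -0.333 (Nefh and Dcx) to 0.908 (Nefl and Nefm, which share sequence). These are descriptions over libraries that share lines and scaling. The genes most like the mean of the 10 over 12 libraries were Ppp2r2b, Wasf3, 2900011O08Rik, Mapre2 and Plppr3 (r of 0.998 to 0.997), where 21.8% of 13414 genes with at least 1 CPM had an r above 0.9. Without that library they were Pfn2, Anks1b, Mapre2, Ppp2r2b and Trim36 (r of 0.976 to 0.965), and 1.21% had an r above 0.9. Of the 10 genes themselves, Stmn2 followed their mean most closely over the 11 libraries (r of 0.969), and Nefh (0.314) and Dcx (0.423) least.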

How the data were processed

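RNA was read as strand-specific poly(A) libraries, per the labels' protocols. The authors deposited a table per library with a count and a cRPKM value for 36902 genes, 3342 of them NA. The deposited counts are raw, whole numbers. Per the labels and values, the deposited cRPKM is an RPKM (per length and library total) after a correction that, like the aligner, annotation and use of strand, is not given in the sources used here. The build was mm10, per the submitters' processing notes. Gene positions and shared exonic sequence (50-base windows) come from GENCODE M21 (GRCm38), and promoters from RefSeq (GRCm38.p6). Of the identifiers with counts, 33371 matched a symbol.

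Counts were tested with edgeR 4.0.16 in R 4.3.3 (TMM, filterByExpr by group, glmQLFit with robust estimation, quasi-likelihood F test), all 12 libraries in 1 fit with a coefficient per group, and line sums in a second fit; genes were called at an adjusted p below 0.05 (Benjamini-Hochberg over all genes tested). The procedure was run on simulated data, and how often it recovers differences of the sizes seen here is not given. The vehicle and inhibitor libraries of a line are paired by the cell line the labels give; the correlation of their deviations from the group means was 0.411, -0.553 and -0.723 in WT and -0.191, 0.574 and -0.373 in KO lines 1 to 3. 2 WT libraries of different lines were most alike each other, so the pairing rests on the labels alone. No 2 libraries of the same group agreed within sampling noise. Libraries of different groups were not compared in this way. The labels do not say that lines were cultured separately for each treatment, so p-values measure the spread between these libraries. Alternatives were RLE scaling, library totals, no filter, DESeq2 1.42.0, each library or line left out (for the list counts added after seeing the data), the compared libraries alone, and a replicate block. All 10 members were named in every comparison, with the 2 most abundant other genes of each list where none was called, and 5 genes most alike the members (prior count 2). The members and lists were chosen with earlier results of these data known. The read depth, with at least 983 counts for every member in every library, leaves counting error small beside the spread between libraries; without molecular identifiers it covers counting error only.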

Additional observations from a re-analysis of the deposited data

Results flagged for a closer look

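Nefh was singled out because its inhibitor response went opposite ways in the lines of the 2 genotypes. In the WT lines it was 0.032, 0.27 and 0.37 on the log2 scale (lines 1 to 3) and in the KO lines -0.14, -0.15 and -1.68. The same pattern, up in 3 WT lines and down in 3 KO lines, was seen in 1.31% of all genes tested. The interaction was -0.72 ± 0.46, with an unadjusted p of 0.147 and an adjusted p of 0.808 in edgeR's quasi-likelihood test, so the difference did not pass. Without the KO inhibitor library of line 3 it was -0.36 ± 0.12 (unadjusted p of 0.0153, adjusted p of 1.00). The share of all genes at an unadjusted p below 0.05 was not counted in that fit. Nefh was flagged from these same values. The largest WT response was that of line 3, whose inhibitor library correlated best with the vehicle library of WT line 2.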

How the results depend on the processing

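No member was called under any alternative: of 1000 values for 60 member results, 943 kept their direction, 57 turned in sign, in 35 of the results, and the smallest adjusted p was 0.179. Leaving out the KO inhibitor library of line 3 turned 17 of them. The number of genes called was 0 in every edgeR fit of a comparison but 1, the line sums without a filter on low counts (2 genes). DESeq2 called 11 genes in vehicle, 18 in inhibitor and 87 over line sums. Map2 with inhibitor in WT, 0.011 in the fit reported, was -0.010 under RLE scaling and in DESeq2, -0.00677 under library totals, -0.022 without a filter and -0.0088 in the 6 libraries compared. Tubb3 over line sums, 0.0062, was -0.00013 under RLE scaling and in DESeq2 and -0.021 under library totals. Gap43 in vehicle, 0.020, was -0.0155 under library totals. The paired fits, with a replicate block, changed no call: 0 genes passed in each. With the line number as replicate block Tubb3 over line sums was at -0.025, and with the cell line as replicate block Nefh had an interaction of -0.87 (adjusted p of 0.929).

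Leaving out 1 library or line turned the sign of some log2 differences, given by their lowest and highest value. For KO against WT in vehicle these were Map2 (-0.085 to 0.30), Ina (-0.0065 to 0.092) and Gap43 (-0.075 to 0.087). For KO against WT in inhibitor these were Map2 (-0.75 to 0.18), Mapt (-0.55 to 0.14), Tubb3 (-0.50 to 0.18), Nefl (-0.63 to 0.057), Nefm (-0.35 to 0.28), Nefh (-0.52 to 0.074), Ina (-0.55 to 0.14), Stmn2 (-0.53 to 0.15) and Gap43 (-0.58 to 0.024). For the inhibitor in WT these were Map2 (-0.21 to 0.21), Mapt (-0.17 to 0.043), Tubb3 (-0.063 to 0.16), Ina (-0.15 to 0.0061), Dcx (-0.15 to 0.24), Stmn2 (-0.17 to 0.088) and Gap43 (-0.15 to 0.11). For the inhibitor in KO these were Map2 (-0.84 to 0.087), Mapt (-0.59 to 0.10), Tubb3 (-0.68 to 0.0033) and Ina (-0.68 to 0.0096). For the interaction these were Map2 (-0.85 to 0.075), Mapt (-0.51 to 0.18), Ina (-0.59 to 0.10) and Gap43 (-0.60 to 0.0037). For the line sums these were Map2 (-0.26 to 0.10), Mapt (-0.27 to 0.064), Tubb3 (-0.13 to 0.19), Nefl (-0.18 to 0.14), Nefh (-0.024 to 0.26), Ina (-0.22 to 0.086), Stmn2 (-0.17 to 0.16) and Gap43 (-0.26 to 0.041). Without line 3 of KO inhibitor, the wider cytoskeleton genes higher of 114 went from 25 to 77 for KO against WT in inhibitor, from 24 to 62 for the inhibitor in KO and from 26 to 70 for the interaction, and without KO line 3 from 49 to 81 over line sums. In that order, the shares of all genes went from 49.9% to 42.6%, 48.2% to 51%, 49.2% to 49.7% and 60.7% to 48.5%. The log2 ratio of Nefm to Nefl ranged from 0.24 to 0.34. The cause of these changes was not tested. Every member had at least 983 counts in each library.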
